A study of Homo sapiens with 8 samples.

Results

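The HOXB cluster is a run of homeobox transcription factor genes on human chromosome 17, and HOXB8 is the member that the hairpins of this study were made against. The 9 genes described here are HOXB2, HOXB3, HOXB4, HOXB5, HOXB6, HOXB7, HOXB8, HOXB9 and HOXB13, chosen by gene symbol out of 17166 genes in the expression table. They were measured in HCT116, a human colorectal cancer cell line grown with fetal bovine serum, by sequencing of polyA-selected RNA. All cells carried a stably transduced short hairpin RNA (shRNA) against HOXB8 whose expression is switched on by doxycycline (dox), in 1 of 2 versions that give the lines sh1 and sh2. The 4 groups were sh1 with 1 ug/ml dox, sh1 without dox, sh2 with 1 ug/ml dox and sh2 without dox, each sampled after 72 hours in 2 libraries, 8 libraries in all. Below, sh1-dox-1 stands for replicate 1 of sh1 with dox and sh1-nodox-1 for replicate 1 of sh1 without. The table names the second hairpin sh3, and its columns were taken as sh2 because no other line remained. No group had dox without a HOXB8 hairpin or a hairpin against no gene, so the effects of the drug, of hairpin expression and of lower HOXB8 cannot be told apart.

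HOX genes encode DNA-binding proteins that give cells along the head-to-tail axis of the embryo their position. In each cluster the genes at the 3′ end, such as HOXB2, are used towards the head, and those at the 5′ end, such as HOXB13, towards the tail, so that neighbours on the chromosome are often active in overlapping regions. HOX genes are held silent by Polycomb proteins and kept active by Trithorax proteins, they bind DNA together with PBX and MEIS partners, and adult tissues, the colon among them, retain HOX expression.

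The values are FPKM, fragments scaled to the length of the transcript and to all mapped fragments, so levels can be set side by side between genes. The FPKM of all genes summed to 440063 to 446889 per library. A library held 15592 to 15762 genes with a value above 0, and sequencing depth is unknown. Repeats of a group correlated at 0.996 to 0.998 across the tested genes, and at most 0.786% of these genes had identical values in a pair of repeats. The 7 epithelial markers were all present, and their summed level was 2816 to 2953 FPKM with dox and 2875 to 3510 FPKM without. Of these markers, 4 were called higher and 2 lower with dox, where 10.1% of all tested genes were called higher and 6.2% lower. EPCAM (log2 change 0.13), CLDN7 (0.17), CLDN4 (0.17) and CDH1 (0.24) were higher, and KRT8 (-0.24) and KRT18 (-0.29) lower. The keratins KRT8, KRT18 and KRT19 make up most of the summed level. The part of these changes in the HOXB values was not tested. The 5 fibroblast markers summed to 6.36 to 8.46 FPKM with dox and 6.64 to 8.07 FPKM without, the 5 leukocyte markers to 8.05 to 10.2 FPKM with dox and 6.57 to 9.61 FPKM without, and the 4 endothelial markers to at most 0.59 FPKM with dox and 0.6 FPKM without. Most of the fibroblast sum was COL1A1, at a mean of 7.35 FPKM with dox and 7.17 FPKM without. Of the leukocyte markers, CD68 averaged 7.495 FPKM with dox and 6.97 FPKM without, and PTPRC 1.46 FPKM with dox and 1.15 FPKM without. PECAM1 of endothelium averaged 0.3325 FPKM with dox and 0.3075 FPKM without. COL1A2 of fibroblasts and CDH5 of endothelium were listed at 0 in every dox library and at no more than 0.01 FPKM elsewhere.

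Levels within the cluster ran over a wide range. HOXB7, a gene often raised in tumours, was the highest member in every group, with a mean over the 8 libraries of 21.3 FPKM, above the level of 77.8% of all genes. HOXB6 followed at a mean of 16.3 FPKM. HOXB9, HOXB5 and HOXB4 lay close together at means of 10.5, 10.4 and 9.38 FPKM. HOXB3 at 5.61 FPKM and HOXB13 at 4.62 FPKM were lower still. HOXB2, which patterns the hindbrain in mouse, was lowest at 0.699 FPKM, above 29.2% of all genes. HOXB8 ranked 6 of 9 in both dox groups and 2 of 9 in both no-dox groups, and the places of HOXB6, HOXB9 and HOXB4 differed between the states as well.

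With dox the order of the members was the same in both lines, running HOXB7, HOXB6, HOXB9, HOXB5, HOXB4, HOXB8, HOXB3, HOXB13 and HOXB2, and the repeats of no adjacent pair overlapped within a group. Without dox the order was also the same in both lines, running HOXB7, HOXB8, HOXB6, HOXB5, HOXB9, HOXB4, HOXB3, HOXB13 and HOXB2. There the repeats of HOXB9 and HOXB4 overlapped in both lines, and those of HOXB5 and HOXB9 overlapped in sh1, so these neighbours in the order cannot be ranked. With 2 libraries per group these gaps were not tested. The plot of FPKM by gene and group shows these levels.

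**Figure D1:**
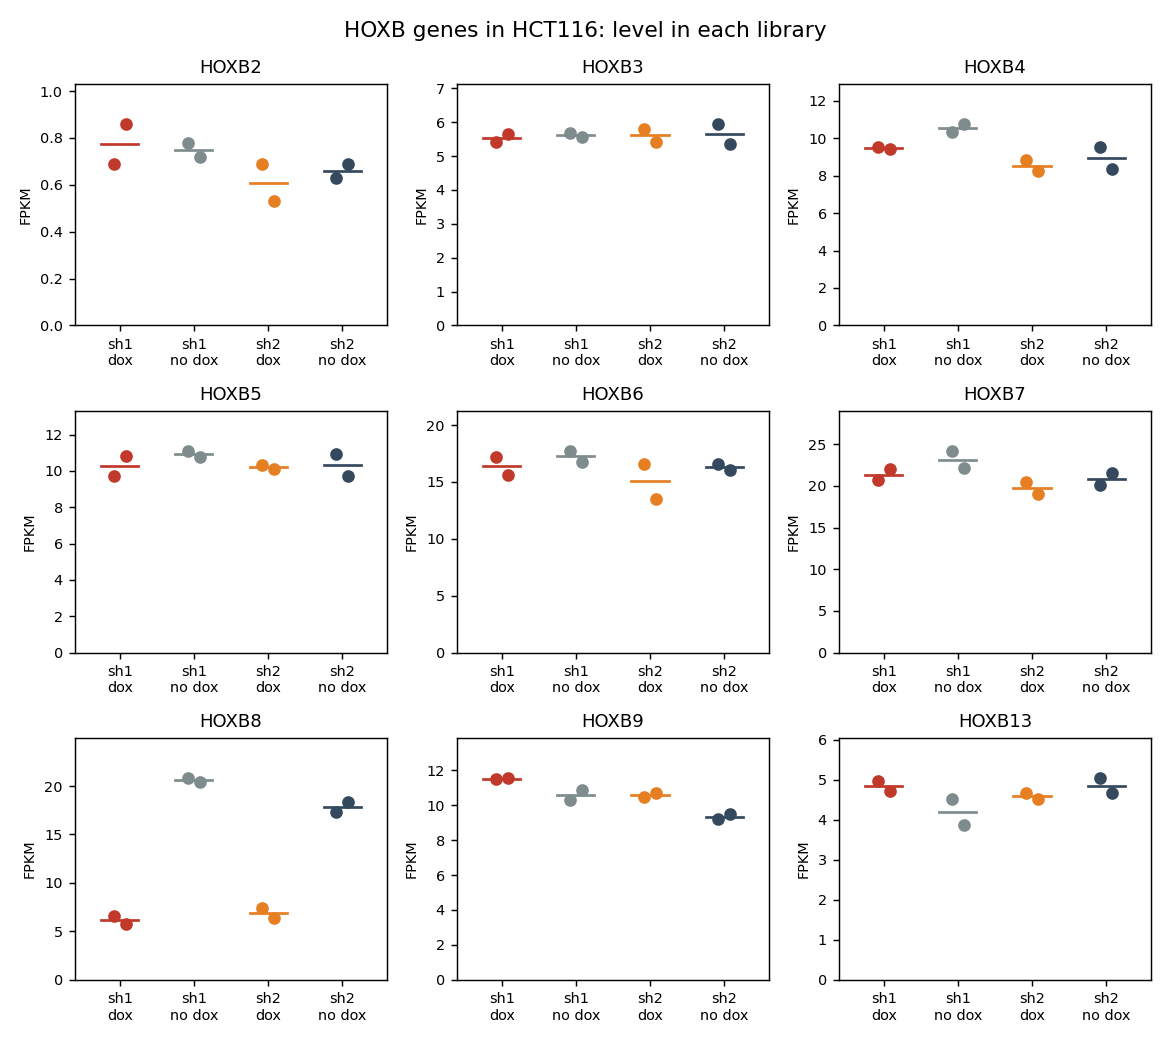
FPKM (y axis, from 0) of the 9 HOXB genes in each of the 4 groups (x axis); points are the 2 libraries of a group and lines their mean. HOXB8 lies at 5.74 to 7.39 FPKM in the 4 dox libraries and at 17.3 to 20.8 FPKM in the 4 no-dox libraries, while the dox and no-dox libraries of each of the other 8 genes overlap.

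HOXB8 (Entrez identifier 3218, transcript NM_024016) is best known for blocking the maturation of myeloid cells when overexpressed, and in the body axis it is used in the trunk. In sh1, HOXB8 read 6.54 and 5.74 FPKM with dox, against 20.8 and 20.4 FPKM without. In sh2, HOXB8 read 7.39 and 6.41 FPKM with dox, against 17.3 and 18.4 FPKM without. The states did not overlap in either line, and the gap between them was many times that between repeats.

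As a share of the level without dox, 29.8% of the HOXB8 message was left in the sh1 line and 38.6% in the sh2 line. Over all pairs of a dox and a no-dox library, the change was -72.4% to -67.97% in sh1 and -65.1% to -57.4% in sh2. On the log2(FPKM + 1) scale the change was -1.60 in sh1 (SE 0.08, adjusted p = 7.49e-06 in limma) and -1.26 in sh2 (SE 0.08, adjusted p = 8.63e-05 in limma). Averaged over the lines it was -1.43 with a 95% interval of -1.55 to -1.31 (adjusted p = 6.86e-07 in limma), the smallest p of all 11712 genes tested. The difference of the effects, sh2 minus sh1, was 0.34 (SE 0.11, 95% interval 0.11 to 0.58). Its p before adjustment was 0.00871 in limma, and after adjustment over all genes it did not pass (adjusted p = 0.992). Sequencing of whole cultures cannot tell a fall in every cell from a loss in part of the cells.

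Of the 8 members that averaged at least 1 FPKM and so were tested, HOXB8 was called lower with dox and HOXB9 higher, at an adjusted p under 0.05 with no limit on the fold. That is 2 of 8, where 16.3% of all tested genes were called, 10.1% higher and 6.2% lower. These were 1180 higher and 726 lower genes, and after quantile normalization 923 higher and 912 lower. The 7 tested neighbours of HOXB8 had a median log2 change of -0.05, and the median of all tested genes was 0.02. HOXB8 was also the member whose 4 dox libraries all lay below all 4 no-dox libraries, which held for 6.87% of tested genes. For 0 of the 9 members did the 4 dox libraries all lie above, which held for 10.2% of tested genes. For the 2 dox and 2 no-dox libraries of a single line, the share of all genes without overlap was not counted. Separations of single neighbours within a line, given below, are therefore not read as effects. The plot of log2 changes by gene shows the neighbours close to 0.

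**Figure D2:**
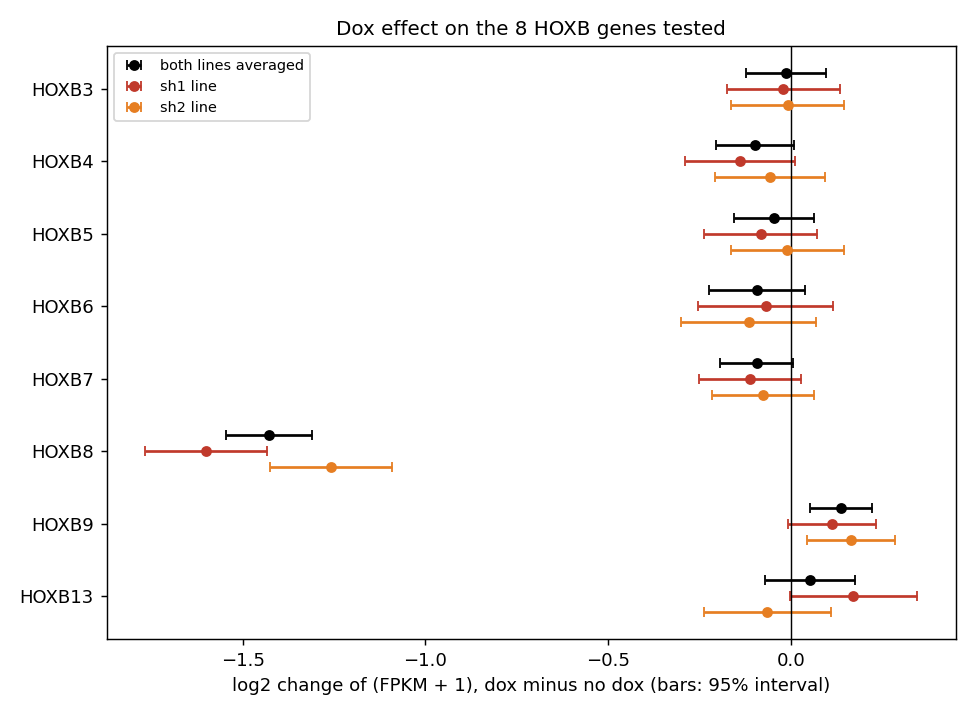
Log2 change of FPKM + 1, dox minus no dox (x axis), of the 8 tested HOXB genes (y axis, in the order of the cluster), averaged over both lines and in each line, with 95% intervals from limma. HOXB8 lies at -1.43, -1.60 and -1.26, and the other 7 genes lie between -0.14 and 0.17.

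HOXB7 and HOXB9 flank HOXB8 on the chromosome. HOXB7 (Entrez identifier 3217) read 20.7 and 21.99 FPKM in sh1 with dox and 24.2 and 22.1 FPKM in sh1 without. In sh2 it read 20.5 and 19.0 FPKM with dox and 20.1 and 21.6 FPKM without. The states did not overlap in sh1, by a narrow margin, and overlapped in sh2. The averaged log2 change was -0.09 (95% interval -0.19 to 0.01) and did not pass (adjusted p = 0.176 in limma). A fall beyond 0.19 on this scale is outside that interval.

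HOXB9 (Entrez identifier 3219), a posterior gene used in the thoracic skeleton and mammary gland of mouse, read 11.49 and 11.54 FPKM in sh1 with dox and 10.3 and 10.8 FPKM in sh1 without. In sh2 it read 10.5 and 10.7 FPKM with dox and 9.19 and 9.48 FPKM without. Within each line both dox libraries lay above both no-dox libraries, and across the lines they overlapped, since the sh1 line was the higher in either state. The share of all genes parted so within both lines was not counted. Mean HOXB9 was 8.84% higher with dox in sh1 and 13.4% higher in sh2. The averaged log2 change was 0.14 (95% interval 0.05 to 0.22, adjusted p = 0.0342 in limma). Neither line passed on its own (adjusted p = 0.232 in sh1 and 0.139 in sh2 in limma). The call of HOXB9 ended in 7 of 8 cases when 1 library was left out, and held without sh2-dox-1. Its adjusted p in limma was then 0.0634 (sh1-nodox-2 left out), 0.0668 (sh2-nodox-2), 0.0695 (sh1-dox-1), 0.0784 (sh2-dox-2), 0.0918 (sh1-dox-2), 0.109 (sh2-nodox-1) and 0.135 (sh1-nodox-1). It ended as well with all genes kept (adjusted p = 0.0561), quantile normalization (0.0632) or no term for the line (0.136).

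HOXB4, HOXB5 and HOXB6 make up the middle of the cluster. HOXB4 (Entrez identifier 3214), which drives self-renewal of blood stem cells when overexpressed, read 9.55 and 9.44 FPKM in sh1 with dox and 10.4 and 10.8 FPKM in sh1 without. In sh2 it read 8.82 and 8.24 FPKM with dox and 9.51 and 8.34 FPKM without. Its states were apart in sh1 and overlapped in sh2, and the averaged change of -0.10 (95% interval -0.20 to 0.01) did not pass (adjusted p = 0.19 in limma). HOXB5 (Entrez identifier 3215), which in mouse acts in lung and in the nerve cells of the gut, spanned 9.70 to 10.8 FPKM with dox and 9.73 to 11.1 FPKM without, with overlap in both lines and an averaged change of -0.05 (adjusted p = 0.556 in limma).

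HOXB6 (Entrez identifier 3216) read 17.2 and 15.6 FPKM in sh1 with dox and 17.7 and 16.8 FPKM in sh1 without. In sh2 it read 16.6 and 13.5 FPKM with dox and 16.6 and 16.02 FPKM without. The library sh2-dox-2 was the lowest, and the gap of 0.27 on the log2 scale between the repeats of that group was the largest among the 9 members. The averaged change was -0.09 (95% interval -0.22 to 0.04, adjusted p = 0.306 in limma). Without sh2-dox-1 the change of HOXB6 was -0.16 and passed (adjusted p = 0.0369 in limma), and without sh2-dox-2 it was -0.02 and did not pass.

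At the ends of the cluster the values were lower. HOXB3 (Entrez identifier 3213), another hindbrain gene, spanned 5.41 to 5.81 FPKM with dox and 5.37 to 5.95 FPKM without. Its averaged change was -0.01 (95% interval -0.12 to 0.10, adjusted p = 0.875 in limma). HOXB2 (Entrez identifier 3212) spanned 0.53 to 0.86 FPKM with dox and 0.63 to 0.78 FPKM without, and fell short of the level needed for the test. With no filter on low values its change was -0.01 (SE 0.05, adjusted p = 0.90 in limma).

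HOXB13 (Entrez identifier 10481), the most posterior member and a regulator of prostate development, lies apart from the rest of the cluster. It read 4.97 and 4.72 FPKM in sh1 with dox and 4.52 and 3.88 FPKM in sh1 without. In sh2 it read 4.67 and 4.52 FPKM with dox and 5.04 and 4.66 FPKM without. In sh1 the dox libraries lay above the others and in sh2 they overlapped them, and the HOXB13 effect was 0.17 for sh1 (log2, adjusted p = 0.212 in limma) and -0.06 for sh2 (adjusted p = 0.705 in limma). For HOXB13 the sh2 effect minus that of sh1 was -0.23 (95% interval -0.48 to 0.01) and did not pass (adjusted p = 0.992 in limma).

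For each line alone, HOXB8 was the 1 member of 8 called, where 6.27% of tested genes were called in sh1 and 2.54% in sh2. For the difference between the lines' effects, 0 of the 8 members and 0% of tested genes were called by limma. Before adjustment 1 member, HOXB8, and 566 of 11712 genes had a p under 0.05 for that difference.

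The FPKM of the 9 members summed to 78.5 to 86.4 with dox and to 94.3 to 105 without. Without HOXB8 in the sum, the remaining 8 members gave 72.1 to 80.7 FPKM with dox and 75.9 to 84.6 FPKM without, which overlapped (two-sided exact permutation p = 0.4 for 4 against 4 libraries). That test pools the lines. In sh1 these sums were 79.7 and 80.7 FPKM with dox, below 84.6 and 81.4 FPKM without. In sh2 they were 77.9 and 72.1 FPKM with dox and overlapped 78.0 and 75.9 FPKM without.

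Shares and ratios within a library, unlike these sums, do not depend on a scaling factor of that library. The share of HOXB8 in the summed HOXB level was 7.59% and 6.64% in sh1 with dox and 19.7% and 20.1% in sh1 without. It was 8.67% and 8.17% in sh2 with dox and 18.2% and 19.5% in sh2 without. HOXB8 thus averaged 7.77% ± 0.868 of the HOXB sum with dox and 19.4% ± 0.822 without (SD, n = 4 per state; p = 0.0286 in a two-sided exact permutation test, the lower bound for 4 against 4 libraries). The ratio of HOXB8 to the adjacent HOXB7 averaged 0.319 ± 0.0425 with dox and 0.874 ± 0.0328 without (SD, n = 4 per state). On the log2 scale this ratio differed by -1.46 (two-sided exact permutation p = 0.0286). The permutation tests of the share and of the ratio also pool the lines, with libraries shuffled without regard to the line. HOXB9 stood at 1.42 to 2.01 times the level of HOXB8 with dox and at 0.496 to 0.531 times without. The stacked plot of the members shows the sums and the part of HOXB8.

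**Figure D3:**
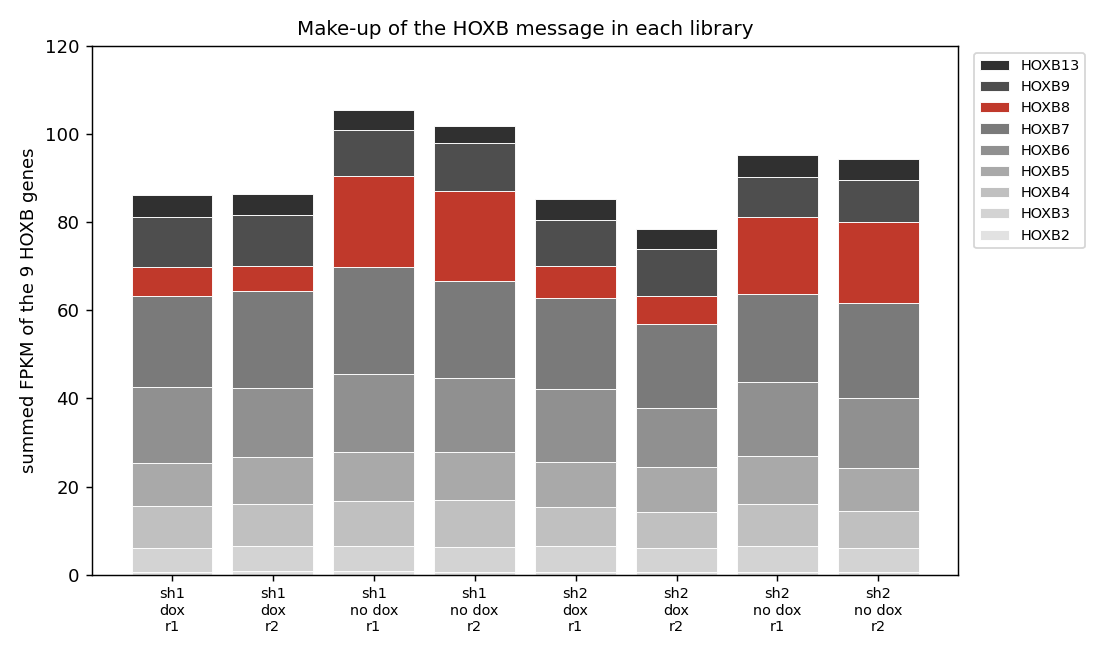
Summed FPKM of the 9 HOXB genes (y axis, from 0) in each library (x axis), stacked by gene with HOXB8 in red and the other genes in greys. The HOXB8 part is 6.64% to 8.67% of the bar in the dox libraries and 18.2% to 20.1% in the no-dox libraries.

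The lines were also compared with each other in the same state, which asks how far the cluster differs between cells carrying either hairpin. With dox, 0 of the 8 members were called between sh2 and sh1 by limma, with 0.0598% of tested genes called. Before adjustment 0 members had a p under 0.05 with dox (1163 of 11712 genes did). HOXB8 read 0.15 higher on the log2 scale in sh2 than in sh1 with dox (95% interval -0.02 to 0.31, adjusted p = 0.562 in limma).

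Without dox, 0 of the 8 members were called between sh2 and sh1 by limma, with 1.45% of tested genes called. Before adjustment 4 members had a p under 0.05 (2116 of 11712 genes did), each lower in sh2. These were HOXB4 (log2 difference -0.22, 95% interval -0.37 to -0.07, adjusted p = 0.128 in limma), HOXB8 (-0.20, -0.36 to -0.03, adjusted p = 0.203 in limma), HOXB9 (-0.16, -0.28 to -0.04, adjusted p = 0.15 in limma) and HOXB7 (-0.14, -0.28 to -0.00348, adjusted p = 0.266 in limma). Without dox, both sh2 libraries lay below both sh1 libraries for each of these 4 genes. The same held for HOXB6 and HOXB2, which are not among the 4, and HOXB13 was parted the other way. The 4 genes were picked by their p in these same libraries, and the share of all genes parted so was not counted. Their separation is therefore not read as an effect. The median difference of the 8 members was -0.11 without dox and that of all tested genes was 0.02. With dox these medians were -0.085 and 0.0034. In that state both sh2 libraries lay below both sh1 libraries for HOXB4, HOXB7, HOXB9 and HOXB13, and not for the other members. This separation is likewise not read as an effect. The comparison of the lines with dox and that without share no libraries.

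**Figure D4:**
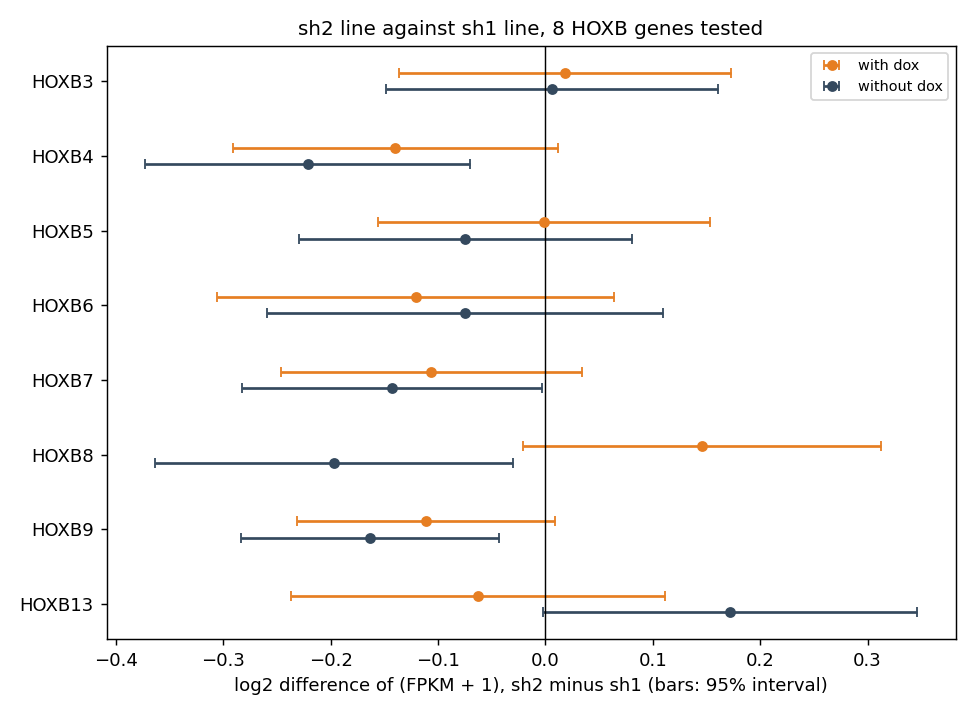
Log2 difference of FPKM + 1, sh2 minus sh1 (x axis), of the 8 tested HOXB genes (y axis), with dox and without dox, with 95% intervals from limma. HOXB8 lies at 0.15 with dox and at -0.20 without, and no member passed in either state.

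The genes around the cluster were looked at as a list of the 10 protein-coding genes on either side, of which 19 were in the table and 12 were tested. Of these, 3 rose with dox, 0 fell in limma and 9 did not pass, and the list's median was 0.03. Over all tested genes 10.1% were called higher and 6.2% lower, with a median of 0.02. NFE2L1, a transcription factor that raises proteasome genes, averaged 71.7 ± 1.14 FPKM with dox and 64.4 ± 1.69 FPKM without (SD, n = 4 per state; log2 change 0.15, adjusted p = 0.00803 in limma). CALCOCO2, an autophagy receptor, averaged 26.7 ± 1.08 FPKM with dox and 24.1 ± 1.23 FPKM without (0.14, adjusted p = 0.0354 in limma). The call of CALCOCO2 ended in 5 cases when 1 library was left out (sh1-dox-2, sh1-nodox-1, sh2-dox-2, sh2-nodox-1, sh2-nodox-2; adjusted p = 0.0837 to 0.14 in limma), and with no filter, TMM factors, no trend or no line term (0.0552 to 0.0822). SKAP1, the flanking gene next to the head end of the cluster, read 4.71 ± 0.328 FPKM with dox and 4.77 ± 0.578 FPKM without (-0.01, adjusted p = 0.921 in limma). Inside the cluster, PRAC1 and PRAC2, small genes between HOXB9 and HOXB13, were listed at no more than 0.22 FPKM in any library. HOXB1 was not analysed here, and neither were the HOXB antisense genes and microRNAs, for which the expression table held 0 rows. The library protocol names no step that keeps the strand, so reads of antisense transcripts that overlap HOXB genes cannot be told apart from reads of those genes.

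The paralogues of the members, the genes of the same numbers in the HOXA, HOXC and HOXD clusters, were 19, of which 13 were tested, with 6 higher with dox, 0 lower in limma and a median of 0.20, beside 10.1% higher, 6.2% lower and a median of 0.02 over all tested genes. HOXA9, the paralogue of HOXB9 with a part in leukaemia, had the smallest p among them and averaged 46.3 ± 2.57 FPKM with dox and 38.02 ± 0.918 FPKM without (SD, n = 4 per state; 0.28, adjusted p = 0.000474 in limma). HOXD8 and HOXC8 are the paralogues of HOXB8. HOXD8 averaged 2.97 ± 0.497 FPKM with dox and 2.18 ± 0.173 FPKM without (SD, n = 4 per state; 0.31, adjusted p = 0.0235 in limma). HOXC8 averaged 1.23 ± 0.175 FPKM with dox and 0.858 ± 0.0377 FPKM without (0.26, adjusted p = 0.041 in limma). Both are lower than HOXB8 at its dox level of 6.52 ± 0.678 FPKM. HOXC8 passed the filter of 1 FPKM only through its dox libraries. Its call and its place among the 6 higher paralogues thus depend on that filter and add no support. The HOXD8 call ended in 5 cases when 1 library was left out (sh1-dox-1, sh1-nodox-1, sh1-nodox-2, sh2-dox-1, sh2-nodox-2; adjusted p = 0.0517 to 0.0817 in limma) and with no filter on low values (0.0837). The HOXC8 call ended in 6 cases (sh1-dox-1, sh1-dox-2, each sh1 and sh2 library without dox; adjusted p = 0.0655 to 0.108 in limma), held without sh2-dox-2, and could not be fitted without sh2-dox-1, where HOXC8 fell short of 1 FPKM. It also ended with no filter (0.0547), quantile normalization (0.0884) and no line term (0.0515). Of the 6 higher paralogues, the HOXA9 call held under every alternative. Each of the others either lost its call under some alternative or was not run under them. The count of 6 is therefore not shown to hold.

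Among the genes that control HOX clusters, 2 of 19 tested Polycomb genes rose, 1 fell and 16 did not pass, a count near the 16.3% called over all tested genes. The chromobox gene CBX7 (log2 change 0.18, adjusted p = 0.0241 in limma) and the methyltransferase gene EZH1 (0.18, adjusted p = 0.0262) rose, and the histone chaperone gene RBBP7 fell (-0.13, adjusted p = 0.0283). Of 16 Trithorax and COMPASS genes with related factors, 14 did not pass, where the same 16.3% of all tested genes were called. The methyltransferase gene SETD1B rose (0.18, adjusted p = 0.0337 in limma) and DOT1L fell (-0.14, adjusted p = 0.0235). Each of these 5 calls ended in some cases when 1 library was left out. CBX7 ended in 5 cases (sh1-dox-1, sh1-nodox-1, sh1-nodox-2, sh2-dox-2, sh2-nodox-2; adjusted p = 0.0504 to 0.0871 in limma), EZH1 in 6 (all but sh2-dox-1 and sh2-nodox-1; 0.0611 to 0.0909) and RBBP7 in 4 (sh1-dox-2, sh1-nodox-1, sh2-dox-2, sh2-nodox-1; 0.0661 to 0.118). SETD1B ended in 7 (all but sh1-dox-2; adjusted p = 0.0515 to 0.12 in limma) and DOT1L in 6 (all but sh1-dox-1 and sh2-dox-1; 0.0551 to 0.0824). With no filter the calls of CBX7 (0.0644), EZH1 (0.0718), RBBP7 (0.0708) and SETD1B (0.0886) ended, and with no line term those of CBX7 (0.0844), RBBP7 (0.0939) and DOT1L (0.144). The RBBP7 call also ended with no trend (0.0709) and that of SETD1B with quantile normalization (0.0531).

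Of the 9 genes for CTCF, cohesin and related factors, which set the boundaries of chromatin loops, 0 were called by limma and 2 had a p under 0.05 before adjustment. Over all 11712 tested genes, 16.3% were called and 3767 had a p under 0.05 before adjustment. Of 7 tested genes of the CDX and retinoic acid inputs to HOX clusters, 1 was called higher, beside 10.1% of all tested genes, and 6 did not pass. The called gene was CYP26B1, an enzyme that breaks down retinoic acid (log2 change 0.22, adjusted p = 0.0204 in limma). The CYP26B1 call ended in 3 cases when 1 library was left out (sh1-dox-2, sh1-nodox-1, sh2-nodox-2; adjusted p = 0.0664 to 0.0796 in limma), with no filter (0.0718) and with no line term (0.0646). CDX2, an intestinal factor that acts on HOX genes, read 9.14 ± 0.424 FPKM with dox and 8.93 ± 0.43 FPKM without (SD, n = 4 per state; 0.03, adjusted p = 0.677 in limma). Of 6 tested PBX, MEIS and PKNOX cofactor genes 0 were called by limma and 1 had a p under 0.05 before adjustment. The shares over all tested genes are those given for the CTCF list. MYC, which the study's title sets upstream of HOXB8, changed by -0.18 (adjusted p = 0.00691 in limma), and this call ended with no line term (0.103). BACH1, the transcription factor gene that the title sets downstream of HOXB8, averaged 4.18 ± 0.101 FPKM with dox and 6.34 ± 0.318 FPKM without (SD, n = 4 per state; log2 change -0.50, adjusted p = 0.000244 in limma).

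The genes whose level over the 8 libraries was most like that of HOXB8 were found by Pearson r on log2(FPKM + 1) across 11711 other genes, as a description without a test. Since HOXB8 fell into separate dox and no-dox clusters, a high r here means a gene parted the same way between the states. The genes with the highest and lowest r were thus picked by the same values that the dox test uses. The p-values printed for them in this paragraph therefore add no support. The highest were UQCRFS1 of respiratory complex III (r = 0.993), the small GTPase gene RRAS2 (0.991), the intestinal transcription factor gene KLF5 (0.989), RHPN2 (0.989) and the phosphatase gene PPM1F (0.987). UQCRFS1 averaged 79.8 ± 3.15 FPKM with dox and 104 ± 1.2 FPKM without, and KLF5 12.9 ± 0.397 FPKM with dox and 16.5 ± 0.437 FPKM without (SD, n = 4 per state). PPM1F was lower with dox (adjusted p = 0.013 in limma), and its call ended without sh1-nodox-2 (0.0518). The lowest were ZNF532 (r = -0.99, not called, adjusted p = 0.0554 in limma), GALNS (-0.99), the growth factor gene FGF19 (-0.99), CEMIP (-0.988) and DCAF8 (-0.986). CEMIP averaged 1.255 FPKM with dox and 0.7525 FPKM without, so it passed the filter of 1 FPKM only through its dox libraries. FGF19 averaged 21.7 ± 1.02 FPKM with dox and 13.8 ± 0.764 FPKM without (SD, n = 4 per state). Within the cluster, HOXB7 had an r of 0.531 with HOXB8, HOXB6 of 0.488, HOXB4 of 0.454, HOXB5 of 0.352, HOXB3 of 0.163, HOXB13 of -0.372 and HOXB9 of -0.657. The likeness of the highest of them, HOXB7, ranked 2135 among the 11711 genes.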

How the data were processed

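The authors deposited FPKM values for 17166 genes in 8 libraries. The submitters' processing notes name HISAT, Bowtie2 and the build hg19; their versions, the tool that counted and the gene models used are not given in the sources. The labels' source description calls every sample induced, so groups follow the titles, and the sh3 columns were matched to sh2 by elimination. All 27 gene symbols that had become dates were restored through Entrez identifiers. Gene order comes from RefSeq (GRCh38.p14), and since that build is not hg19 no coordinates are given.

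The 11712 genes that averaged 1 FPKM or more were fitted as log2(FPKM + 1) with limma 3.58.1 in R 4.3.3, using 1 mean per group (4 residual degrees of freedom) and a mean-variance trend. Tests were two-sided, p-values were adjusted by Benjamini-Hochberg across these genes, and the threshold was 0.05. Exact permutation tests pooled the lines and used scipy 1.17.1. The fit was run on simulated data with independent libraries and planted shifts larger than the changes of the HOXB8 neighbours. That simulation therefore does not cover changes as small as theirs. FPKM gives no depth, so counting intervals cannot be given. The labels number the repeats without naming separate cultures, so p-values measure the spread between these libraries, which may be technical.

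The members and lists were chosen with earlier results of these data known. Named beside the 9 members were those of each list with the lowest p (at most 4), HOXC8 and HOXD8, MYC and BACH1, and the 5 genes most and the 5 least like HOXB8. The values of 1 gene that this rule names are not reported here. SKAP1, CDX2 and the single cell type markers were named after their values were seen. Alternatives were no filter, a pseudocount of 0.1, quantile normalization, TMM factors computed on the FPKM, no trend, robust moderation, a replicate block, no line term, and leaving out each library. For genes other than the members they were added after the data were seen.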

Additional observations from a re-analysis of the deposited data

How the results depend on the processing

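HOXB8 stayed lower with dox and past the threshold under every alternative run, with an averaged log2 change of -1.55 (pseudocount 0.1) to -1.38 (1 library left out). The count of 2 members called for the averaged effect fell to 1, HOXB8, with no filter on low values, with quantile normalization and with no line term. With 1 library left out it was 1 to 3. The counts for the single lines, the difference and the lines compared were the same under each alternative that could be fitted. Of 702 values of single members under the alternatives, 691 were labelled unchanged, 10 lost the call (all HOXB9) and 1 gained it (HOXB6). Most of the 691 belong to effects not called at the start, and those of HOXB2 had no adjusted p to compare. Leaving out a library outside a comparison also keeps its log2 change, so the 691 do not measure robustness. The averaged HOXB9 call held in 5 of 8 changes of the processing and in 1 of 8 with 1 library left out.

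The HOXB8 share differed by -11.996 to -11.2 percentage points and the log2 ratio to HOXB7 by -1.53 to -1.37 with 1 library left out, where the smallest possible p is 0.0571. The numbers of the repeats did not establish pairs: deviations of same-numbered dox and no-dox libraries correlated at 0.0744 in sh1 and 0.159 in sh2, and those of the other 4 pairs of groups at -0.0266 to 0.215. As a replicate block within each line they left the share at -11.6 and the log2 ratio at -1.46 (exact sign-flip p = 0.125, the smallest it can give), kept 2 members called, and gave 2477 genes called, against 1906 without the block.

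Over all genes the averaged count of 1906 was 1021 with no filter, 1074 with no line term, and 851 to 2351 with 1 library left out. The lower counts came on leaving out sh1-nodox-1 (851), sh2-nodox-1 (897), sh1-dox-2 (974), sh1-nodox-2 (1167) or sh2-nodox-2 (1194). Across all alternatives the counts were 99 to 1206 for sh1 (734 as reported), 17 to 583 for sh2 (297), 16 to 368 for the lines without dox (170), 0 to 7 for the lines with dox (7) and 0 to 2 for the difference (0). The values as deposited gave 1180 higher and 726 lower, and quantile normalization 923 higher and 912 lower. FPKM hides the depth, so the precision of low values such as those of HOXB2 is unknown.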
